A study of Rattus norvegicus with 18 samples.

Results

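The 6 cartilage genes Col2a1, Col9a1, Col10a1, Col11a1, Chad and Cnmd were followed through the healing of a femoral fracture in rats of 3 ages. The members were all probe sets on the array that the platform annotation gives to these 6 symbols, which are 9 of 8740 probe sets tested and 6 of 4736 gene symbols. A probe set is a group of short probes that reads 1 transcript. Col2a1, Col10a1 and Col11a1 each have 2 probe sets, and the brighter one over the 18 arrays stands for the gene.

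A rat femoral fracture held by a rod heals through a callus in which cartilage forms first and is then replaced by bone. Chondrocytes lay down fibrils of type II collagen, with type XI collagen in the fibril and type IX collagen on its surface. When they mature and enlarge they make type X collagen, and the calcified cartilage is then removed by invading vessels, osteoclasts and osteoblasts.

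RNA was measured on 18 Affymetrix rat arrays, 1 for each of 3 ages and 6 times. The rats were female Sprague-Dawley rats, 6 weeks old (called young), 26 weeks old (adult) or 52 weeks old (older) when a closed transverse fracture was made at the middle of the left femur, which held a steel intramedullary rod. The fractured groups were taken 0.4, 1, 2, 4 or 6 weeks later, and the labels give the 0.4 week time as 3 days. The reference was the 0 time group, sham rats of the same ages without fracture. Each array held pooled RNA of 2 rats, from femoral shaft tissue that the labels call callus at every time, the 0 time samples included. Such a bulk sample cannot tell fewer cells of a type from less RNA per cell. Each week has n = 3 arrays, 1 of each age, which stand as its replicates, and p-values measure the spread between these pooled arrays.

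Signals are in arbitrary units, scaled so that each array averages 500. Changes are on the log2 scale after signals below 20 were set to 20. The limma fit over time had terms for age and for week, and "called" means a Benjamini-Hochberg adjusted p under 0.05 over all 8740 probe sets. Median signals of the arrays ran between 149.4 and 187.7. The ratio of the 3′ to the 5′ Gapdh probe set, which moves with RNA quality, was 3.48 on the young array of 4 weeks and 6.57 on the young array of 6 weeks, against 1.15 to 1.83 on the other 16 arrays.

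In the GRCr8 assembly, Col2a1 lies at chr7:130977561-131006627, Col9a1 at chr9:34081364-34164552, Col11a1 at chr2:204509136-204702264, Col10a1 at chr20:39737536-39744518, Chad at chr10:80009045-80012816 and Cnmd at chr15:61450617-61475382. RefSeq promoter sequences were matched for 4 of the 6 genes. Those of 3 genes are shown, chosen because their time courses differed: Col11a1 with its early peak, Col10a1 with its sharp peak at 2 weeks, and Chad, which in older rats was highest at 4 weeks. Each is the 250 bases before the annotated start, and capitals mark matches to TATAAA (the TATA box) and GGGCGG (the SP1 GC box).
Col11a1, chr2:204508886-204509135, + strand: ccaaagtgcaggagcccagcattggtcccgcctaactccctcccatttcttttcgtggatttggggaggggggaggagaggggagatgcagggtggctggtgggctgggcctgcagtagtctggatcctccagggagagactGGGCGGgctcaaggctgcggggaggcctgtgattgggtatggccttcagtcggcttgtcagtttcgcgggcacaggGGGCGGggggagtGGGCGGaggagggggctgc
Col10a1, chr20:39737286-39737535, + strand: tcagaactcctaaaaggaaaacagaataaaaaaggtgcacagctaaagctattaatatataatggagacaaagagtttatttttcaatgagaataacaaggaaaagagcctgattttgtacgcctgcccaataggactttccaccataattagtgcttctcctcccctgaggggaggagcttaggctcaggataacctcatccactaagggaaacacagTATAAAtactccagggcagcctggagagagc
Chad, chr10:80008795-80009044, + strand: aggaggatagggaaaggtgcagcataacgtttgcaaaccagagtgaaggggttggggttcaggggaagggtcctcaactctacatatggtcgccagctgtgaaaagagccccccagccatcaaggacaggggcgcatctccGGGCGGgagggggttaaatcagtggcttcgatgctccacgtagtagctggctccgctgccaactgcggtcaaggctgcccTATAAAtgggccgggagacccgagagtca
The Col10a1 sequence is 41.6% G and C and holds TATAAA 31 bases before the start, at -31 to -26. The Chad sequence is 58.4% G and C and holds TATAAA at -29 to -24, with GGGCGG at -109 to -104. The Col11a1 sequence is 65.6% G and C and holds GGGCGG at -108 to -103, -32 to -27 and -19 to -14. Col9a1, the other gene matched, held none of the motifs searched in a sequence of 46.8% G and C. Both strands of all 33469 promoters in the table were searched, where TATAAA occurred in 12.9% and GGGCGG in 30.5%. AACAAT, a core of SOX sites, occurred in 10.3% of them and ACCACA, a core of RUNX sites, in 14.5%, and neither occurred in the 4 sequences of these genes. The motifs do not overlap each other, and a match describes the letters only.

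At 2 weeks 5 of the 6 genes were called higher than at 0 time, Col10a1 by 124-fold, Col2a1 by 72.1-fold, Col11a1 by 10.5-fold, Chad by 5.85-fold and Col9a1 by 2.01-fold. Of all probe sets, 9.49% were called higher at 2 weeks and 19.8% in either direction. At 1 week 4 of the 6 were called higher, all but Chad and Cnmd, where 14.6% of probe sets were, and 34.9% in either direction. At 0.4 weeks Col11a1 was the 1 gene called, where 14.1% of probe sets were called higher and 31.1% in either direction. At 4 weeks only Col10a1 was called, against 3.31% of probe sets higher and 5.08% in either direction. At 6 weeks none of the 6 was called, against 0.561% and 0.881%, with 2 of them at an unadjusted p under 0.05. The median change of the 6 genes was 2.97 at 2 weeks, and that of all probe sets was -0.13. The calls depend on the adult and the older arrays. Without the young arrays 2, 3 and 4 of the 6 were called at 0.4, 1 and 2 weeks. Without the adult arrays 0, 1 and 0 were, and without the older arrays none was at these weeks, while at an unadjusted p under 0.05 4 of the 6 at 2 weeks passed without adult arrays and 5 without older arrays. The changes at 2 weeks without adult arrays were 5.71 for Col2a1, 6.54 for Col10a1, 3.58 for Col11a1 and 2.49 for Chad. Without older arrays they were 5.63 for Col2a1 and 6.38 for Col10a1, but 2.17 for Col11a1 and 1.79 for Chad, against 3.40 and 2.55 with all arrays. Without young arrays they were 7.18 for Col2a1, 7.95 for Col10a1, 4.44 for Col11a1 and 3.36 for Chad. Over all probe sets, 0 were called at 2 weeks without adult arrays and 11 without older arrays. Without the young arrays 3 of the 6, Col2a1, Col10a1 and Col11a1, were called at 4 weeks and again at 6 weeks, and without the young arrays of 4 and 6 weeks alone 2 were called at each, Col2a1 and Col10a1.

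**Figure D1:**
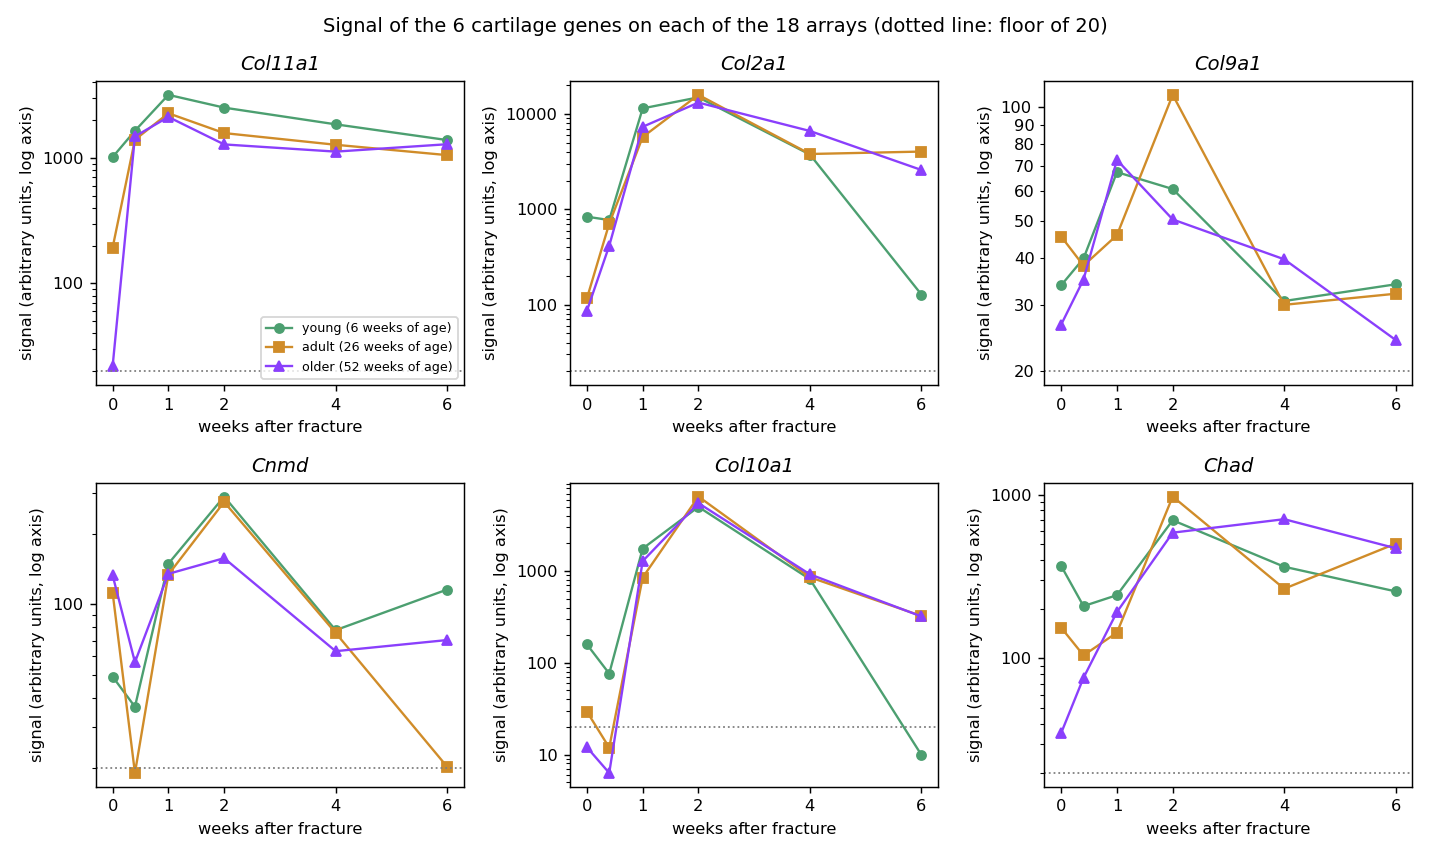
Signal of the leading probe set of each gene (arbitrary units, log axis) against weeks after fracture, 1 point for each array, with 1 line for each age and a dotted line at the floor of 20. Col2a1 and Col10a1 were highest at 2 weeks at all 3 ages, Col11a1 at 1 week, and on the young array of 6 weeks Col2a1 read 127.7 and Col10a1 9.9.

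Type II collagen, the main collagen of cartilage, is the product of Col2a1 (probe set AJ224879_at). In young rats its signal was 839, 773, 11491, 15004, 3765 and 127.7 at 0 time, 0.4 weeks, 1 week, 2 weeks, 4 weeks and 6 weeks. In adult rats it was 116.5, 709, 5750.5, 15934, 3816 and 4045. In older rats it was 86.3, 415, 7365, 13222, 6653 and 2592. All 3 arrays of 1, 2 and 4 weeks lay above all 3 arrays of 0 time, which holds for 17.2%, 13.8% and 9.76% of all probe sets. The highest level was reached at 2 weeks at each age, and there the 3 ages lay within a narrow range, 14720 ± 1378 (SD, n = 3), against 347 ± 426 at 0 time. The change against 0 time was 5.27 at 1 week (SE 1.16, limma adjusted p = 0.0069) and 6.17 at 2 weeks (adjusted p = 0.0095). It was 1.59 at 0.4 weeks (adjusted p = 0.319), 4.49 at 4 weeks (adjusted p = 0.0502) and 2.44 at 6 weeks (adjusted p = 0.262), so the 4 week value missed the threshold narrowly.

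Type XI collagen is a minor fibril collagen that sets fibril width, and Col11a1 encodes 1 of its chains. Its leading probe set (AJ005396_at) read 1015, 1643, 3174, 2511, 1849 and 1385 in young rats at the 6 times. In adult rats it read 193.2, 1395, 2265, 1575, 1271 and 1051. In older rats it read 22, 1482, 2116, 1279, 1121 and 1284. All arrays of each of the 5 weeks lay above all arrays of 0 time, which holds at 0.4 weeks for 17.4% and at 6 weeks for 6.68% of all probe sets. The 0 time arrays spread widely, over 22 in older rats and 1015 in young rats, whereas those of 0.4 weeks lay at 1506 ± 126 (SD, n = 3). The change was 3.21 at 0.4 weeks (SE 0.81, limma adjusted p = 0.0135), 3.93 at 1 week (adjusted p = 0.0054) and 3.40 at 2 weeks (adjusted p = 0.0190). At 4 and 6 weeks it was 3.08 (adjusted p = 0.0529) and 2.92 (adjusted p = 0.0949). Without the older arrays, the change at 0.4 weeks was 1.77.

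Type IX collagen sits on the surface of the type II fibril, and Col9a1 encodes its first chain. Its single probe set (S67620_at) was dim on every array, between 24.2 and 108. At 2 weeks it read 60.8, 108 and 50.5 in young, adult and older rats, and at 1 week 67.4, 45.9 and 72.6, against 33.8, 45.5 and 26.6 at 0 time. The 3 arrays of each of these weeks lay above all 3 of 0 time, at 1 week only just, with 45.9 as the lowest against 45.5 as the highest of 0 time. The change was 0.82 at 1 week (SE 0.28, limma adjusted p = 0.0447) and 1.01 at 2 weeks (adjusted p = 0.0326). At 4 and 6 weeks it was -0.06 and -0.21, neither called. With a floor of 1 instead of 20 neither the 1 week nor the 2 week change was called.

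Cnmd encodes chondromodulin, a cartilage protein that inhibits vessel growth. Its signal (AF051425_at) was 49.2, 36.6, 149.3, 288.7, 77.7 and 115.8 in young rats at the 6 times. In adult rats it was 112.2, 19.1, 134.2, 273.8, 75.6 and 20.3. In older rats it was 133.1, 56.7, 135.1, 157.6, 63.2 and 70.5. The arrays of 1 and 2 weeks lay above those of 0 time, at 1 week only just, with 134.2 as the lowest against 133.1 as the highest of 0 time. No single week was called, with changes of -1.38 at 0.4 weeks (SE 0.59, limma adjusted p = 0.0945) and 1.36 at 2 weeks (adjusted p = 0.116). The moderated F test over the 5 weeks, which asks whether any week differed from 0 time, gave an adjusted p of 0.0377. That test called 5 of the 6 genes, all but Chad (adjusted p = 0.0569), against 26.4% of all probe sets. Its adjusted p was 0.0145 for Col2a1, 0.0280 for Col9a1, 0.0331 for Col11a1 and 0.0031 for Col10a1.

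Type X collagen is made by hypertrophic chondrocytes, and Col10a1 is their standard marker. Its leading probe set (AJ131848_at) read 158.8, 76.3, 1759, 5009, 815 and 9.9 in young rats at the 6 times. In adult rats it read 29.4, 11.9, 849.9, 6490.4, 856 and 324. In older rats it read 12, 6.3, 1284, 5501, 921 and 320.1. The signal was near or below the floor in adult and older rats at 0 and 0.4 weeks, while the lowest array of 2 weeks read 5009. The arrays of 1, 2 and 4 weeks all lay above those of 0 time. The change was 4.78 at 1 week (SE 1.06, limma adjusted p = 0.0072), 6.96 at 2 weeks (adjusted p = 0.0043) and 4.25 at 4 weeks (adjusted p = 0.0464). It was -0.54 at 0.4 weeks and 1.49 at 6 weeks, neither called, and after scaling to the median the 4 week change was 4.18 and not called.

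Chad encodes chondroadherin, a leucine-rich repeat protein of cartilage matrix to which chondrocytes attach. Its signal (AF004953_at) was 366.6, 208.6, 243.4, 697, 362.7 and 256.5 in young rats at the 6 times. In adult rats it was 154.1, 104.4, 143.8, 973, 266.4 and 502. In older rats it was 35.1, 76.2, 192.1, 585.6, 707.6 and 470.3. Only the 3 arrays of 2 weeks all lay above those of 0 time, at 752 ± 199 against 185 ± 168 (SD, n = 3). The change at 2 weeks was 2.55 (SE 0.70, limma adjusted p = 0.0302). At 0.4, 1, 4 and 6 weeks it was -0.09, 0.59, 1.70 and 1.64, none of them called. At 0 time the 3 ages were in the order young, adult, older, from high to low, as they were for Col2a1, Col11a1 and Col10a1, each with 1 array an age.

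**Figure D2:**
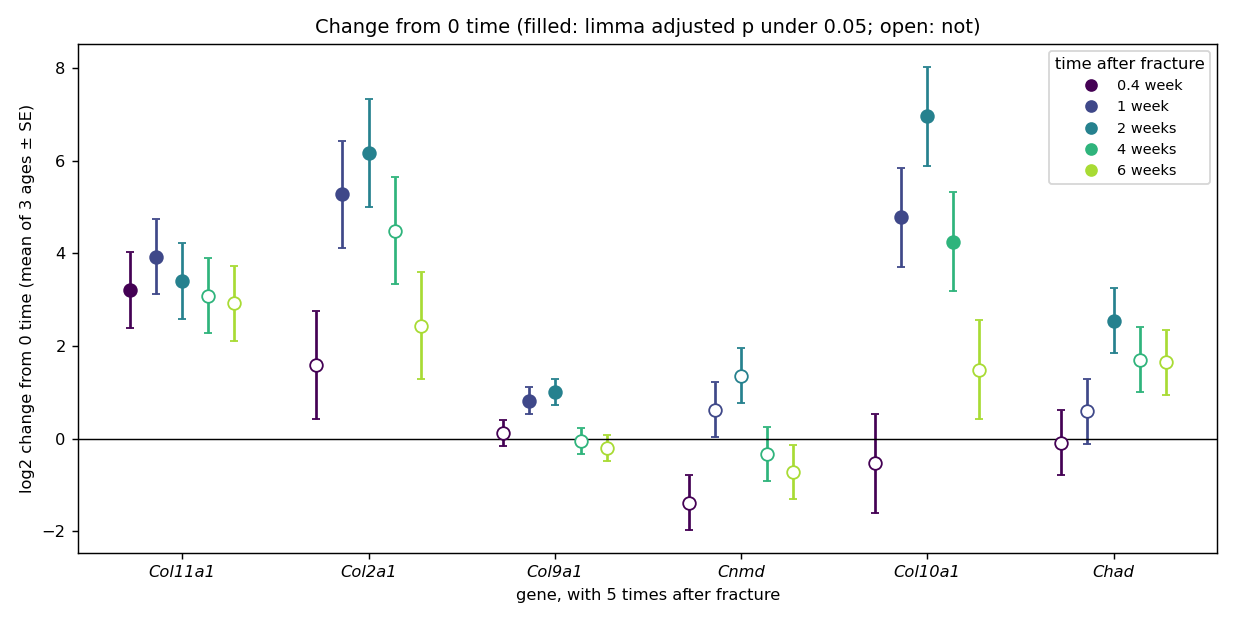
Log2 change from 0 time of the leading probe set of each gene at 5 times after fracture, as the mean over 3 ages with the SE of the limma fit; filled points have an adjusted p under 0.05. Col11a1 stood at 3.21 at 0.4 weeks, where Col2a1 was at 1.59 and Col10a1 at -0.54, and Col10a1 reached 6.96 at 2 weeks.

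The order of the genes was read from each signal as a percentage of that gene's own highest signal at the same age. At 0.4 weeks Col11a1 stood at 51.8%, 61.6% and 70.03% of its highest in young, adult and older rats. Col2a1 stood at 5.15%, 4.45% and 3.14% at that time. Col10a1 stood at 1.52% in young rats, and in adult and older rats its signal was below the floor, which puts it at no more than 0.308% and 0.364%. The order Col11a1, Col2a1, Col10a1 thus held at all 3 ages for the leading probe sets. The second Col10a1 probe set stood at 10.9%, 16.5% and 13.6% of its own highest, above Col2a1 at each age. The order of Col2a1 and Col10a1 at 0.4 weeks thus depends on the probe set. Chad, at 29.9%, 10.7% and 10.8%, and Col9a1, at 59.1%, 35.3% and 48.2%, stood above Col2a1 at that time. Cnmd did so in young rats at 12.7% and in older rats at 36.0%, and in adult rats its signal was below the floor. Without fracture, at 0 time, Col11a1 stood at 32.0%, 8.53% and 1.04% and Col2a1 at 5.59%, 0.731% and 0.653%. Chad then stood at 52.6%, 15.8% and 4.96%, Col9a1 at 50.1%, 42.1% and 36.6%, and Cnmd at 17.0%, 41.0% and 84.5%. A place at 0.4 weeks thus includes the level without fracture and is not an order of onset. At 1 week the leading Col11a1 probe set was at its highest at each age, and Col2a1 had reached 76.6%, 36.1% and 55.7%. Col10a1 had reached 35.1%, 13.1% and 23.3%, and Chad 34.9%, 14.8% and 27.1%. Col11a1 and Col2a1 thus stood above Col10a1 and Chad at each age, while Col10a1 and Chad had no fixed order. Cnmd, at 51.7%, 49.0% and 85.7%, and Col9a1, at 100%, 42.5% and 100%, had no fixed place between these.

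After 2 weeks the order was that of decline. At 4 weeks Col10a1 was at 16.3%, 13.2% and 16.7% of its highest in young, adult and older rats, and Col2a1 at 25.1%, 23.9% and 50.3%. The leading Col11a1 probe set was still at 58.3%, 56.1% and 53.0%. The second Col11a1 probe set was at 22.0%, 11.1% and 19.5% of its own highest, below Col2a1 at each age. The place of Col11a1 in the decline thus depends on the probe set. Chad stood at 52.0% in young rats and 27.4% in adult rats, and in older rats it was at its highest. At 6 weeks Chad was at 36.8%, 51.6% and 66.5%, and Col10a1 at no more than 0.399% in young rats, where its signal was below the floor, and at 4.99% and 5.82% in adult and older rats. These percentages describe single arrays, and the differences in order between genes were not tested.

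**Figure D3:**
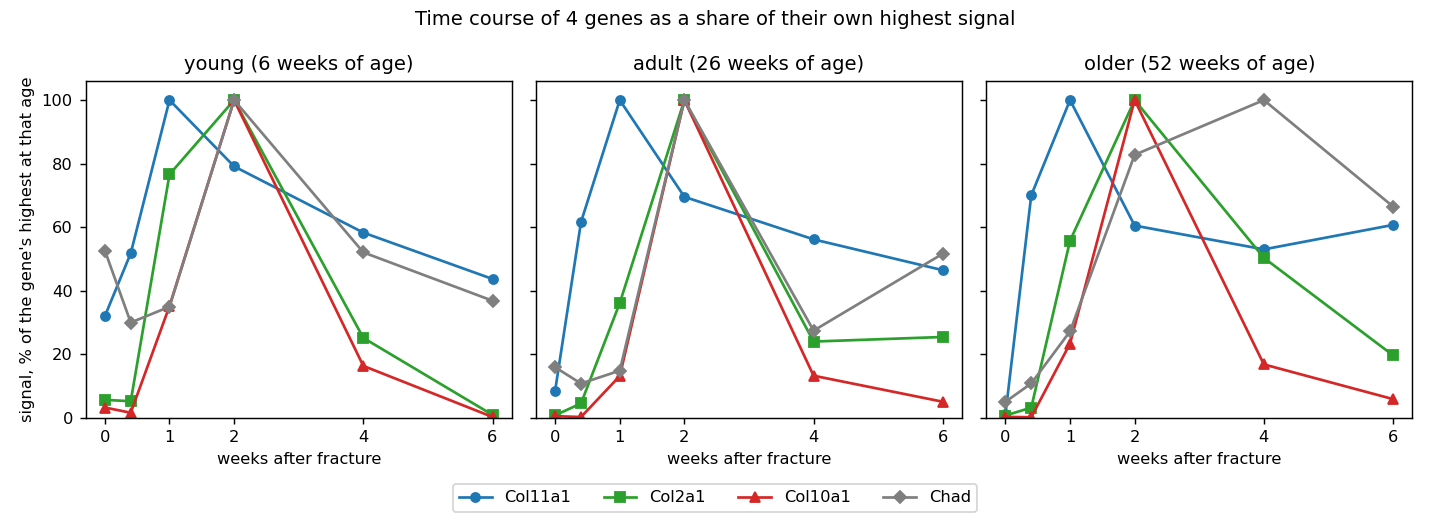
Signal of Col11a1, Col2a1, Col10a1 and Chad as a percentage of each gene's highest signal at that age, against weeks after fracture, with 1 panel for each age and 1 array for each point. The leading probe set of Col11a1 was at its highest at 1 week in all 3 panels, Col2a1 and Col10a1 at 2 weeks, and Chad at 2 weeks in young and adult rats and 4 weeks in older rats.

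The steps between neighbouring weeks were tested in the same fit. Only 1 step of the 6 leading probe sets was called, Col10a1 between 0.4 and 1 week, by 5.31 (SE 1.06, limma adjusted p = 0.0499). That call was lost with quantile normalization, where the change was 5.25, and with scaling to the median, where it was 5.35. Of all probe sets 0.847% were called in that step, 0.126% between 1 and 2 weeks, 0.892% between 2 and 4 weeks and 0% between 4 and 6 weeks, where 212 had an unadjusted p under 0.05. In the step from 0.4 to 1 week the difference was 3.69 for Col2a1 (limma adjusted p = 0.173) and 2.01 for Cnmd (adjusted p = 0.145). From 1 to 2 weeks it was 2.18 for Col10a1 (adjusted p = 0.477) and 1.96 for Chad (adjusted p = 0.301). From 2 to 4 weeks it was -2.71 for Col10a1 (adjusted p = 0.323) and -1.68 for Col2a1 (adjusted p = 0.623).

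The second probe sets did not all repeat the leading ones. Col10a1 (S79214cds_s_at) read 1171, 957 and 1261 at 2 weeks in young, adult and older rats, against 196.1, 283.4 and 416.2 at 0 time. It was highest at 2 weeks at each age and was called higher there, by 1.98 (limma adjusted p = 0.0041). At 1 and 4 weeks it was not called against 0 time, with changes of 0.50 (limma adjusted p = 0.212) and 0.31 (adjusted p = 0.552). The leading set was called higher at both times, by 4.78 and 4.25. The second set was called lower at 0.4 weeks, by -0.91 (adjusted p = 0.0396), at 127.9, 157.5 and 171.9, and lower at 4 than at 2 weeks, by -1.67 (adjusted p = 0.0315). Over the 18 arrays its log2 signals had a Pearson r of 0.756 with those of the leading set.

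The second Col11a1 probe set (U20121_at) read 287.1, 247.6 and 163 at 2 weeks in young, adult and older rats, against 77, 24.9 and 23.5 at 0 time. It was called higher at 1 week, by 2.56 (limma adjusted p = 0.0178), and at 2 weeks, by 2.67 (adjusted p = 0.0259). It was highest at 2 weeks in young and adult rats, with 211.9 and 151.6 at 1 week, and at 1 week in older rats, with 288.2, so it did not share the peak week of the leading set at 2 of the 3 ages. At 6 weeks it read 18.4, 21.2 and 20.2, each below the 0 time value of its age, while the lowest signal of the leading set on these arrays was 1051. At 0.4 weeks it read 280.3, 17.7 and 233.1, so the adult array lacked the early level that the leading set showed. Its r with the leading set was 0.491. The second Col2a1 probe set (L48618_at) was below 20 on 14 of 18 arrays, with a highest signal of 42.4, and was called in no comparison.

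**Figure D4:**
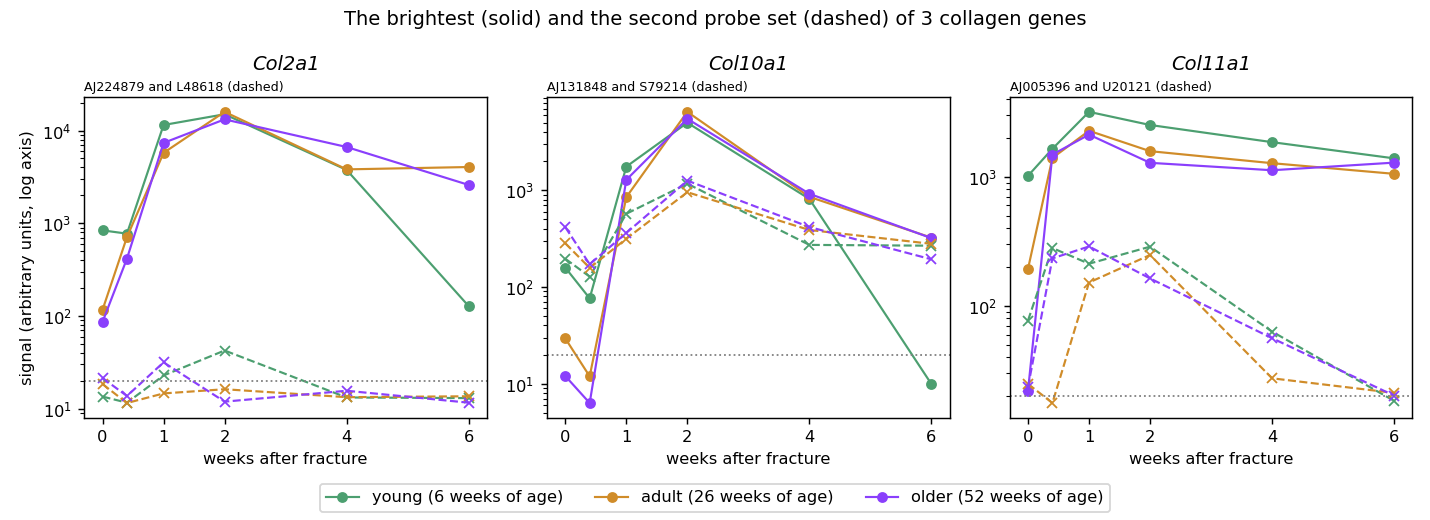
Signal (arbitrary units, log axis) against weeks after fracture of the brightest probe set (solid) and the second probe set (dashed) of Col2a1, Col10a1 and Col11a1 at 3 ages, 1 array for each point; the dotted line is the floor of 20. Both Col10a1 probe sets were highest at 2 weeks at each age, and on the young array of 6 weeks the second read 267.5 where the leading one read 9.9.

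The age comparison asked whether the cartilage genes differed between older and young rats late in healing. At 6 weeks Col2a1 read 2592 in older and 4045 in adult rats, against 127.7 in young rats, ratios of 20.3 and 31.7. Col10a1 read 320.1 in older and 324 in adult rats, against 9.9 in young rats, ratios of at least 16.0 and 16.2 over the floor of 20. At 4 weeks the ages were closer, with Col2a1 at 6653 in older, 3816 in adult and 3765 in young rats. Col10a1 was then at 921 in older, 856 in adult and 815 in young rats. Over 4 and 6 weeks together older rats exceeded young rats by 2.58 for Col2a1 (SE 1.44, 95% interval -0.82 to 5.98, limma adjusted p = 0.523). For Col10a1 the difference was 2.09 (SE 1.86, interval -2.32 to 6.49, adjusted p = 0.755). Without the young array of 4 weeks the Col2a1 difference was 5.02, with the young side resting on the 127.7 of 6 weeks alone. Without the young array of 6 weeks the Col10a1 difference was -0.59. That fit sets older rats at 4 and 6 weeks against young rats at 4 weeks alone, so its sign mixes age with week. At 4 weeks alone older rats were slightly higher, at 921 against 815. The late values thus turn on those single arrays.

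The young arrays of 4 and 6 weeks are the ones with Gapdh ratios of 3.48 and 6.57, and the part of RNA quality in the late age differences was not tested. On the young array of 6 weeks Col11a1 read 1385, above the 1284 in older and the 1051 in adult rats. The second Col10a1 probe set read 193.3 in older and 279.6 in adult rats there, against 267.5 in young rats, so it did not share the low value of the leading one. None of the 6 genes was called between any 2 ages at 4 and 6 weeks or at 1 and 2 weeks, nor was any late difference called different from its early one. Of all probe sets 0.572% were called between older and young rats at 4 and 6 weeks and 0.0114% at 1 and 2 weeks. Between adult and young rats these were 0.126% and 0.0114%, between older and adult rats 0.0572% and 0%, and for the difference between the phases 0.0229%. At 1 and 2 weeks Col11a1 was the 1 gene of the 6 that passed 0.05 without adjustment between older and young rats, at -0.78 (limma adjusted p = 1). It read 2116 and 1279 in older rats, against 3174 and 2511 in young rats.

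At 0 time the ages stood far apart on their single arrays, so a gene's range within an age depended on them. The highest signal over that age's own 0 time array was 3.13-fold in young, 11.7-fold in adult and 96.2-fold in older rats for Col11a1. For Col2a1 these were 17.9-fold, 137-fold and 153-fold. For Col10a1 they were 31.5-fold, 221-fold and at least 275-fold, and for Chad 1.90-fold, 6.31-fold and 20.2-fold. Cnmd ran the other way, with 5.87-fold, 2.44-fold and 1.18-fold.

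The other genes of the pathway were taken from lists by role. Of 9 measured genes of other cartilage matrix proteins, 8 were called higher at 2 weeks and 0 lower, with a median change of 1.91, against 9.49% of all probe sets called higher and 10.3% lower. Aggrecan (Acan), the large proteoglycan of cartilage, was 21.1-fold higher (limma adjusted p = 0.0383), and Comp, which binds collagen fibrils, was 18.2-fold higher (adjusted p = 0.0027). Versican (Vcan) was 5.10-fold and Mia, a secreted protein of chondrocytes, 4.75-fold higher. Ncan was not called. Acan read 1372, 1653 and 1617 at 0.4 weeks in young, adult and older rats, against 521, 30.7 and 18.8 at 0 time, an early level like that of Col11a1. Mia read 269.4, 244.6 and 254.2 at 1 week, against 48.5, 31.9 and 95.5 at 0.4 weeks, a step that was called, by 2.27 (adjusted p = 0.0327). At 6 weeks Acan read 570.4 in older and 311.9 in adult rats, against 22.3 in young rats, the low young value seen for Col2a1 and Col10a1. That young array had the Gapdh ratio of 6.57, and the part of RNA quality was not tested.

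Of 14 measured genes of hypertrophic cartilage and its removal, 9 were called higher at 2 weeks and 0 lower, with a median of 1.91, and 6 were called higher at 4 weeks. Of all probe sets 9.49% were called higher at 2 weeks and 3.31% at 4 weeks. Cathepsin K (Ctsk) and Acp5, both enzymes of osteoclasts, were 12.6-fold and 9.32-fold higher at 2 weeks. The matrix metalloproteinases Mmp13, which cleaves type II collagen, and Mmp9 were 10.5-fold and 10.4-fold higher. Mmp13 read 7700, 9884 and 9904 at 6 weeks in young, adult and older rats, against 3485, 644.6 and 431.4 at 0 time, and was the 1 gene of the list still called then (limma adjusted p = 0.020). At 4 and 6 weeks Mmp14 read 6666 and 4608 in older rats, against 994 and 753 in young rats. It was called between these ages (2.68, limma adjusted p = 0.0089). Those young arrays had the Gapdh ratios of 3.48 and 6.57, and the part of RNA quality in this difference was not tested. Vegfa and Enpp1, among others, were not called at 2 weeks.

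Collagen chains are hydroxylated, folded and cross-linked by a shared set of proteins. Of 12 such genes measured, 11 were called higher at 0.4 weeks, 10 at 1 week, 9 at 2 weeks and 0 at 4 weeks, with a median change of 1.51 at 2 weeks. Of all probe sets 14.1%, 14.6%, 9.49% and 3.31% were called higher at these times. Lox, which cross-links collagen, was 21.4-fold higher at 2 weeks, Serpinh1, a collagen chaperone, 6.62-fold, Pcolce 4.79-fold and the prolyl hydroxylase chain P4ha1 3.49-fold. Of 17 measured regulators of chondrocytes, 4 were called higher and 3 lower at 0.4 weeks, and 5 higher and 3 lower at 1 week. Of all probe sets 14.1% were called higher and 17.1% lower at 0.4 weeks, and 14.6% higher and 20.4% lower at 1 week. At 2 weeks 4 were called higher and 0 lower, with a median of 0.01, against 9.49% of all probe sets higher and 10.3% lower. Those 4 were Tgfb3 (3.91-fold), the receptor Pth1r (2.69-fold), Tgfb1 (2.63-fold) and Hif1a (2.31-fold). Bmp2, Bmp4, Bmp6, Bmp7, Igf1 and Fgf2 were not called. Bmp7 was below the floor of 20 on every array after fracture, with 28.9 as its highest signal at 0 time, so its lack of a call says little.

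**Figure D5:**
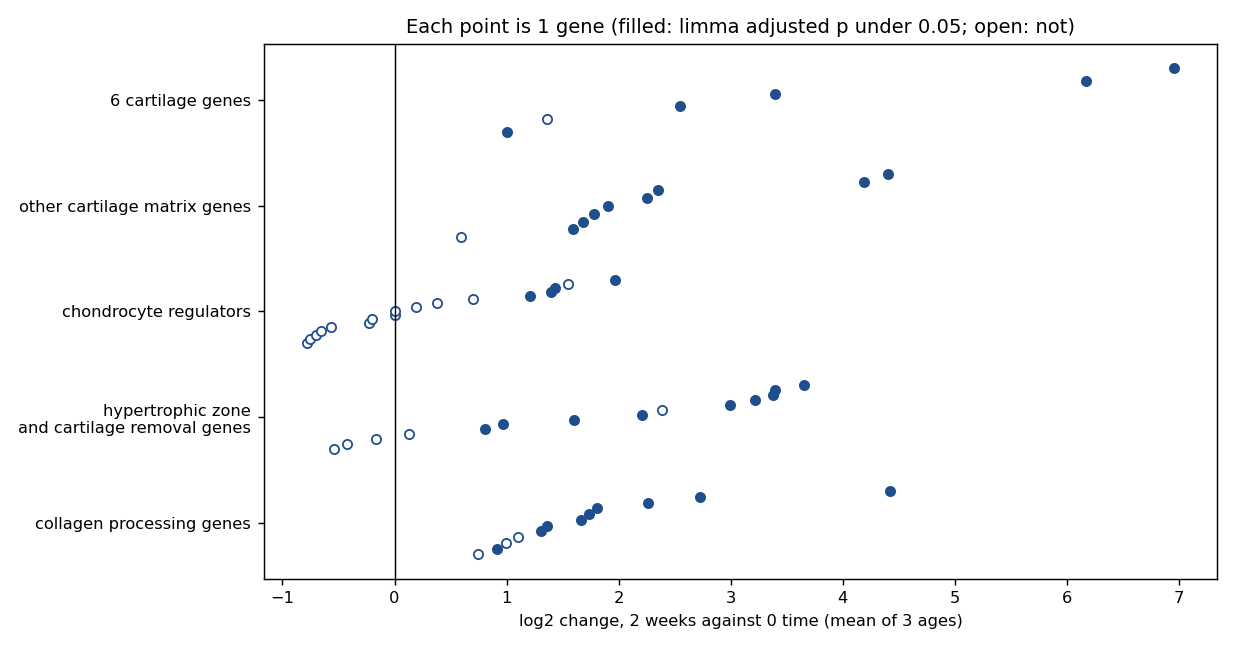
Log2 change at 2 weeks against 0 time (mean of 3 ages) of the 6 cartilage genes and of 4 lists of related genes, 1 point for each gene at its leading probe set; filled points have a limma adjusted p under 0.05. Of the other cartilage matrix genes 8 of 9 were called higher, and of the regulators 4 of 17.

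Genes of other cell types moved at the same weeks. Of 14 skeletal muscle markers 14 were called lower at 0.4 weeks, 12 at 1 week and 0 at 2 weeks. Of all probe sets 17.1%, 20.4% and 10.3% were called lower at these weeks. Their summed signal was 113643 to 156384 at 2 weeks, against 178263 to 329035 at 0 time. Of 6 erythroid markers 5 were called lower at 2 weeks, with sums of 12424 to 65651 against 72250 to 106684 at 0 time, and Alas2 was 8.33-fold lower. All 6 granulocyte markers were called lower at 2 weeks, with sums of 884 to 3091 against 32286 to 50211 at 0 time, and S100a8 was 36.4-fold lower. Of all probe sets 9.49% were called higher at 2 weeks. Of 6 osteoclast markers 3 were called higher at 2 weeks, with sums of 35227 to 52733 against 6462 to 21691. Car2 of that list went the other way. It read 5536, 1863 and 1769 at 2 weeks in young, adult and older rats, against 6605, 3624 and 4473 at 0 time. Of 10 osteoblast markers 5 were higher, with sums of 97598 to 134274 against 28542 to 127739, among them Ibsp (7.94-fold), Phex (6.14-fold) and Spp1 (4.61-fold). No marker of these 5 lists was below 20 on all 3 arrays of 0 time or of 2 weeks. Of 9 fibrillar and fibrous tissue genes 5 were higher, among them Col5a1 and Col5a2 (both 5.88-fold), Fn1 (5.32-fold) and Col3a1 (3.79-fold). Ctsk, Acp5, Mmp9, Ibsp, Spp1 and Pth1r each stand in more than 1 list. The part of these shifts in the changes of the cartilage genes was not tested.

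The genes with the most similar pattern were sought by Pearson r of log2 signal over the 18 arrays among probe sets with 1 symbol and a mean signal of at least 200. The arrays share weeks and ages, so r describes likeness of time course only. Col2a1 was most like Col10a1 (r = 0.948), then Gpx3 (0.903), Agrn (0.895), Jdp2 (0.890) and Slc4a2 (0.882). Col10a1, after Col2a1, was most like Fcgrt (0.846), Myh3 (0.842), Enpp2 (0.829) and Loxl1 (0.826). Col11a1 was instead most like Sdc1 (0.970), Col5a2 (0.967), Col3a1 (0.948), Slc30a4 (0.947) and Atp1b3 (0.945), with an r of 0.662 with Col2a1 and 0.507 with Col10a1.

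Chad was most like Acp5 (r = 0.899) and Ctsk (0.881), then Rab38 (0.871), Mt3 (0.862) and Serpine2 (0.858). Its r was 0.735 with Col10a1 and 0.701 with Col2a1. Cnmd was most like the second probe set of Col10a1 (0.772), then Ndufb6 (0.724), Gas6 (0.693), Myh3 (0.671) and Atp1b1 (0.662), and its r with Col11a1 was -0.01. The dim Col9a1 was most like Nfix (0.815), Nr3c1 (0.811), Igfbp5 (0.796), Stx8 (0.749) and Igf2 (0.741). Col2a1 and Col10a1 named each other. Col9a1 and Cnmd, with mean signals of 45.3 and 109.4, were below the limit of 200 and could not be named by another gene.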

How the data were processed

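The deposited values are linear intensity signals, which the authors obtained from Microarray Suite 5.0 with the mean of each array scaled to 500. RNA of 2 rats was pooled per array. Detection calls and the arrays of other series were not used here. After 59 manufacturer controls were dropped from 8799 probe sets, 8740 were tested. Of these, 7006 had 1 gene symbol in the platform annotation, 308 several and 1426 none. No 2 arrays held identical values (r 0.816 to 0.978).

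Signals below 20 were set to 20 and log2 was taken. Time was tested with limma 3.58.1 in R 4.3.3, with age and week as terms and an intensity trend, on 10 residual degrees of freedom. Ages were compared over 12 arrays in cells of age and phase (1 and 2, 4 and 6 weeks), on 6. Adjustment was over all tested probe sets at 0.05. The number of arrays limits the precision: a simulation in which 200 of 8740 probe sets changed at 2 weeks recovered 29% of log2 changes of 1 and 81.5% of log2 changes of 2, with 3 and 10 false calls. For late differences of older from young rats, 10% and 56.5% were recovered, with 0 and 9 false calls.

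The named genes are all probe sets of the 6 symbols, up to 4 genes called higher and 4 lower at 2 weeks from each list, and the 5 genes with the highest r. Other genes were named after their values were seen. The members and lists were chosen with earlier results of these data known. The alternatives were quantile normalization, median scaling, an offset of 50, a floor of 1, a mean signal of at least 200 and no trend. Others were no age term, week as a term within phases, means of probe sets and ages or arrays left out. The last were own controls and a t-test of 3 arrays against 3. Python 3.11.15 and matplotlib 3.10.9 drew the figures.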

Additional observations from a re-analysis of the deposited data

Results flagged for a closer look

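The change from each age's own 0 time array was set side by side between ages, in a fit with 1 control array for each age that is assumed to vary like the other groups. Over 4 and 6 weeks the change of Col11a1 from its control differed by 5.11 on the log2 scale between older and young rats (limma adjusted p = 0.0017) and by 3.19 between older and adult rats (adjusted p = 0.0171). Over 1 and 2 weeks these differences were 4.75 (adjusted p = 0.0028) and 2.94 (adjusted p = 0.0263). Of all 8740 probe sets, 428 and 287 were called in the comparisons over 4 and 6 weeks, and 288 and 266 in those over 1 and 2 weeks. All 4 share 1 older 0 time array, on which Col11a1 read 22. Across the 3 ages the log2 signals of 0 time had an SD of 2.77, against 0.12 to 0.50 at the later weeks. That SD is between ages, and with 1 control array for each age the spread within an age could not be measured. These p-values rest on the assumed spread, so they cannot tell an age difference at 0 time from variation of single arrays. Without own controls the difference of older from young rats was -0.42 at 4 and 6 weeks (adjusted p = 0.655) and -0.78 at 1 and 2 weeks (adjusted p = 1).

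In 2 genes the change from the own 0 time array over 4 and 6 weeks had opposite signs between ages. Cnmd was below its control at 4 and 6 weeks in older rats (-1.07 and -0.92) and in adult rats (-0.57 and -2.47), against 0.66 and 1.24 in young rats. The difference was -1.94 between older and young rats (adjusted p = 0.434) and -2.47 between adult and young rats (adjusted p = 0.365). Chad was above its control in older rats (4.33 and 3.74) and in adult rats (0.79 and 1.70), against -0.01 and -0.51 in young rats. The difference was 4.30 between older and young rats (adjusted p = 0.245) and 1.51 between adult and young rats (adjusted p = 0.796).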

How the results depend on the processing

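No paired analysis was possible because the labels give no replicate numbers that pair arrays; age is a term of the fit over time. Counts here are of the 6 genes called. Leaving out 1 age gave 0 to 2 at 0.4 weeks, 0 to 3 at 1 week, 0 to 4 at 2 weeks, 0 to 3 at 4 weeks, 0 to 3 at 6 weeks, 0 to 3 in the F test, 0 to 2 in the step from 0.4 to 1 week and 0 to 1 in that from 2 to 4 weeks. Without the adult arrays 1 was called at 1 week, and without the older arrays none at any week. Of all 8740 probe sets, 2722, 3054, 1733, 444 and 77 were called at the 5 weeks with all arrays. Without the adult arrays these were 330, 394, 0, 1 and 0, and without the older arrays 519, 244, 11, 0 and 1. Without the young arrays they were 2971, 3117, 2584, 1174 and 1315. At 4 weeks the 6 genes' count was 3 with a floor of 1, an offset of 50 or a mean signal minimum of 200. It was 2 with quantile normalization, without the age term or without the young arrays of 4 and 6 weeks, and 0 with median scaling. At 6 weeks it was 1 with the offset or the minimum of 200 (Col11a1) and 2 without the young late arrays (Col2a1 and Col10a1). The step from 0.4 to 1 week had 0 with quantile normalization, median scaling or no intensity trend and 2 without the young late arrays. The step from 2 to 4 weeks had 1 with the offset. A t-test of 3 arrays against 3, on log2 or linear signals, called 0 at 0.4, 1, 2 and 4 weeks after adjustment. At 2 weeks it called 10 of all 8740 probe sets on log2 and 1 on linear signals. Without adjustment 2 and 5 of the 6 genes were under 0.05 then. The authors' t-tests had 3 arrays for each age and week, so this is not a repeat of them. With own 0 time controls 1 gene, Col11a1, was called in 4 age comparisons. In these 266 to 428 of all 8740 probe sets were called. With 1 array left out in turn, 0 to 1 was called between older and young and between adult and young rats at 4 and 6 weeks. The Col10a1 late difference of older from young rats was -0.59 without the young array of 6 weeks and 4.76 without that of 4 weeks. Each sets older rats at both weeks against young rats at 1 of them, so the change of sign mixes age with week. The other 177 counts compared stayed within 1.5 times. Counts that were 0 in both fits are among them, as in most age comparisons, and bear little on stability. The cause of these changes was not tested.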
